A study of Mus musculus with 20 samples.

Results

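The laminin and integrin genes are described here in whole dorsal root ganglia (DRG) of the late mouse embryo. The members are the 38 protein-coding genes, among 37620 genes listed, whose symbol is Lama, Lamb or Lamc with a number or Itga or Itgb with a number or letter. Symbols of proteins that only bind or resemble an integrin (Itgb1bp, Itgb3bp, Itgbl1) were left out. There were 11 laminin chains (5 alpha, 3 beta, 3 gamma) and 27 integrin subunits (18 alpha, 9 beta). Every library came from a C57Bl6 embryo late in gestation (E18.5), with no treatment and no engineered allele named in the labels. Each of 10 donors gave a lumbar library (L4-5 ganglia) and a sacral library (L6-S1 ganglia). The 5 male donors (M1, M3, M5, M7, M8) and 5 female donors (F3, F7, F8, F9, F10) made 20 libraries in 4 groups of 5, a lumbar and a sacral group for each sex. The name sacral for L6-S1 follows the study. The ganglia were homogenized whole, so each value is a sum over neurons, glia, vessels, connective tissue and any tissue that came with the dissection.

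Laminins are secreted proteins of 1 alpha, 1 beta and 1 gamma chain that polymerise into the basement membrane, the sheet of matrix around Schwann cells, blood vessels, muscle fibres and the coverings of nerves and ganglia. Integrins are cell surface receptors of 1 alpha and 1 beta subunit that bind matrix outside the cell and the actin cytoskeleton inside it. The alpha subunit largely sets the ligand: Itga3, Itga6 and Itga7 bind laminins, Itga1, Itga2, Itga10 and Itga11 bind collagens, Itga5, Itga8 and Itgav bind the Arg-Gly-Asp motif of proteins such as fibronectin, and Itga4 and Itga9 bind VCAM-1 and other ligands. In peripheral nerve, laminins and their integrin receptors are known for their part in axon growth and in the sorting and myelination of axons by Schwann cells.

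Levels were read as deposited, as log2 RPKM, a count of reads divided by library size and by gene length, which allows levels of different genes to be compared. The 20 libraries held 19403023 to 39257771 reads over the genes whose whole reads could be recovered, and mitochondrial ribosomal RNA took 18.1% to 61.4% of them. Sensory neuron markers were present in each library, at a summed 1266 to 2904 RPKM in lumbar and 572 to 2040 RPKM in sacral DRG. Donors M7 and F8 stood apart. In these donors alone the summed fibroblast and meningeal markers, led by Ptgds, were lower in the sacral than in the lumbar library. Lumbar first, they were 523 against 488 RPKM in M7, a small difference, and 985 against 610 RPKM in F8. In F8 alone the summed sensory neuron markers were higher in the sacral library (1312 in lumbar, 1497 RPKM in sacral). Summed skeletal muscle markers were 266 RPKM in the sacral library of M7 and 523 RPKM in the lumbar library of F8, the highest of each level, against medians of 72.5 and 63.1 RPKM. Results that rest on these donors are given with and without them.

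A gene was tested if its mean log2 RPKM reached 0, the level of 1 RPKM, in at least 1 of the 4 groups. Of the 38 genes, 22 did: 5 laminins (Lama2, Lama4, Lamb1, Lamb2, Lamc1) and 17 integrins (12 alpha and 5 beta). The other 16 stayed below that level in all 4 groups. By the same mean, Itga10 reached it only in sacral female libraries and Itga8 only in the sacral groups, so both entered the test through the level where they were higher.

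**Figure D1:**
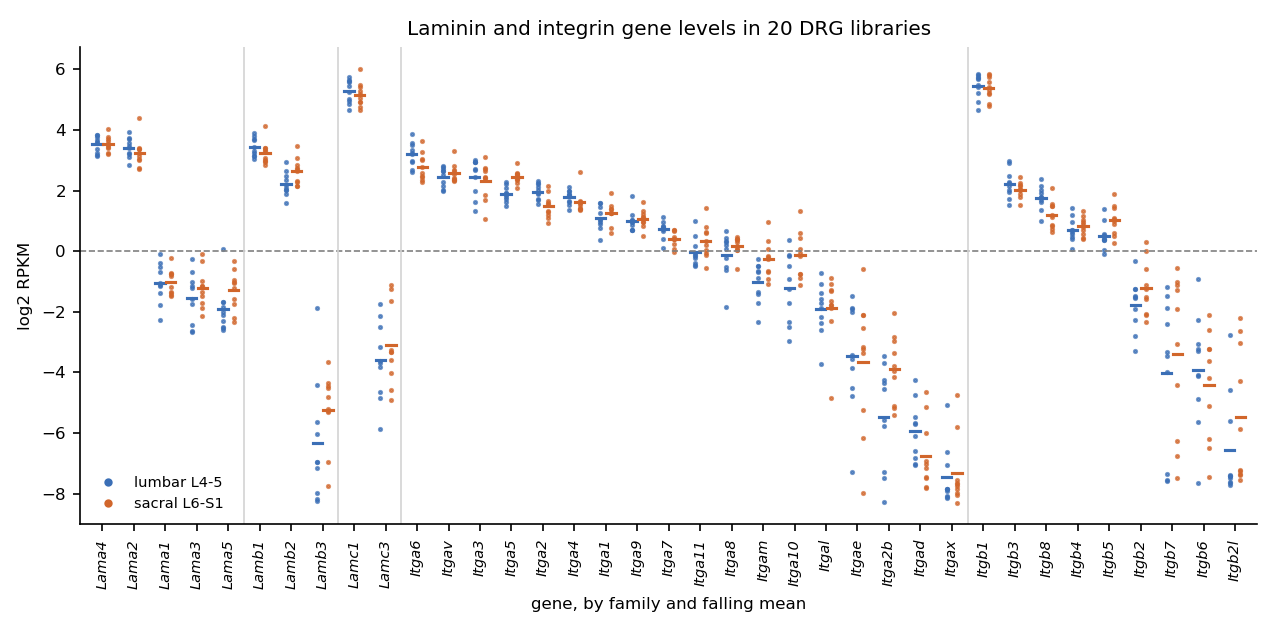
Level of the laminin and integrin genes (log2 RPKM, vertical axis) in the 10 lumbar (blue) and 10 sacral (orange) libraries, ordered by family and falling mean. Points are libraries, short bars are means, and the dashed line marks 1 RPKM. Itgb1 and Lamc1 lie highest, and the means of the leukocyte integrins lie below the dashed line.

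Among the laminins, the gamma chain Lamc1 was the most abundant at a mean of 38.6 RPKM (5.22 ± 0.39 log2 RPKM, SD, n = 20 libraries of 10 donors). In the lumbar libraries Lamc1 was lowest at 4.66, had a median of 5.36 and was highest at 5.73 log2 RPKM. In the sacral libraries the lowest was 4.66, the median 5.12 and the highest 6.02 log2 RPKM. Both ranges nearly coincided, with only the sacral library of M7 above and only that of M5 below all lumbar values. Lamc1 made up 97.7% of the summed RPKM of the 3 gamma chains.

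The alpha chains Lama4, known from vessels and peripheral nerve, and Lama2, the muscle and Schwann cell chain, were expressed at like levels. Lama4 was at 11.8 RPKM, from 3.16 over a median of 3.59 to 3.83 log2 RPKM in lumbar and from 3.22 over 3.52 to 4.03 in sacral libraries. It varied least of the 22 genes, with an SD of 0.25 over the 20 libraries. Lama2 was at 10.5 RPKM (3.33 ± 0.41 log2 RPKM). Lama4 made up 50.3% and Lama2 43.9% of the summed alpha chain RPKM, and the remaining Lama1, Lama3 and Lama5 made up 2.28%, 1.92% and 1.62%.

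The beta chains were led by Lamb1 at 10.4 RPKM, from 3.03 over 3.37 to 3.91 log2 RPKM in lumbar and from 2.86 over 3.19 to 4.14 in sacral libraries. Lamb2, the beta chain of synaptic and vascular basement membranes, was at 5.65 RPKM. The epithelial chain Lamb3 was near 0, at 0.0355 RPKM. Lama3, another chain known from epidermis, was at 0.433 RPKM, and both were below 1 RPKM in each group.

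Among the integrins, Itgb1, the shared beta subunit of most matrix receptors, was highest at 44.0 RPKM. Its lumbar values ran from 4.66 over a median of 5.58 to 5.84 log2 RPKM, and its sacral values from 4.79 over 5.38 to 5.86. Itgb1 made up 78.2% of the summed RPKM of the 9 beta subunits. Itgb3, the partner of Itgav and of the platelet subunit Itga2b, followed at 4.54 RPKM with 8.30% of that sum, from 1.53 over 2.21 to 2.97 log2 RPKM in lumbar and from 1.52 over 2.05 to 2.45 in sacral libraries. Itgb8, which with Itgav activates latent TGF-beta, was at 2.97 RPKM, Itgb5, another Itgav partner, at 1.81 RPKM and the Schwann cell and epithelial laminin receptor subunit Itgb4 at 1.75 RPKM.

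The highest alpha subunit was the laminin receptor Itga6 at 8.36 RPKM, followed by Itgav at 5.86 and the laminin receptor Itga3 at 5.61 RPKM. Itgav ran from 1.998 over 2.58 to 2.81 log2 RPKM in lumbar and from 2.32 over 2.49 to 3.32 in sacral libraries. Itga3 was the more variable of both, from 1.32 over 2.69 to 3.01 in lumbar and from 1.06 over 2.44 to 3.11 log2 RPKM in sacral libraries. The fibronectin receptor Itga5 was at 4.66, the collagen receptor Itga2 at 3.43, Itga4 at 3.34, Itga1 at 2.34, Itga9 at 2.10 and Itga7 at 1.51 RPKM. The collagen receptor Itga11 and the nephronectin receptor Itga8 were close to 1 RPKM, at 1.19 and 1.08. Itga10 was lower, at 0.804 RPKM. The ranges of neighbouring alpha subunits in this order overlapped.

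The main comparison asked which of these genes differed between the sacral ganglia, which hold the neurons of pelvic organs, and the lumbar ganglia of the same donor. Differences are sacral minus lumbar in log2 RPKM, averaged over the sexes, with their standard error (SE) from limma and p-values with Benjamini-Hochberg adjustment across the 14529 genes that were tested. Of the 22 genes, 3 passed an adjusted p of 0.05: Itga5 was higher, and Itgb8 and Itga2 were lower in sacral DRG. These 3 are 13.6% of the members tested, beside 6.73% of all genes tested. Of all genes, 2.7% were called higher and 4.03% lower in sacral DRG. No laminin passed. At an unadjusted p under 0.05 there were 8 of the 22, beside 24.1% of all genes. The median difference was -0.02 over the 22 genes and -0.05 over all genes tested, and the median size of the difference was 0.20 against 0.17. Bulk values do not tell fewer cells of a type from less RNA per cell.

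**Figure D2:**
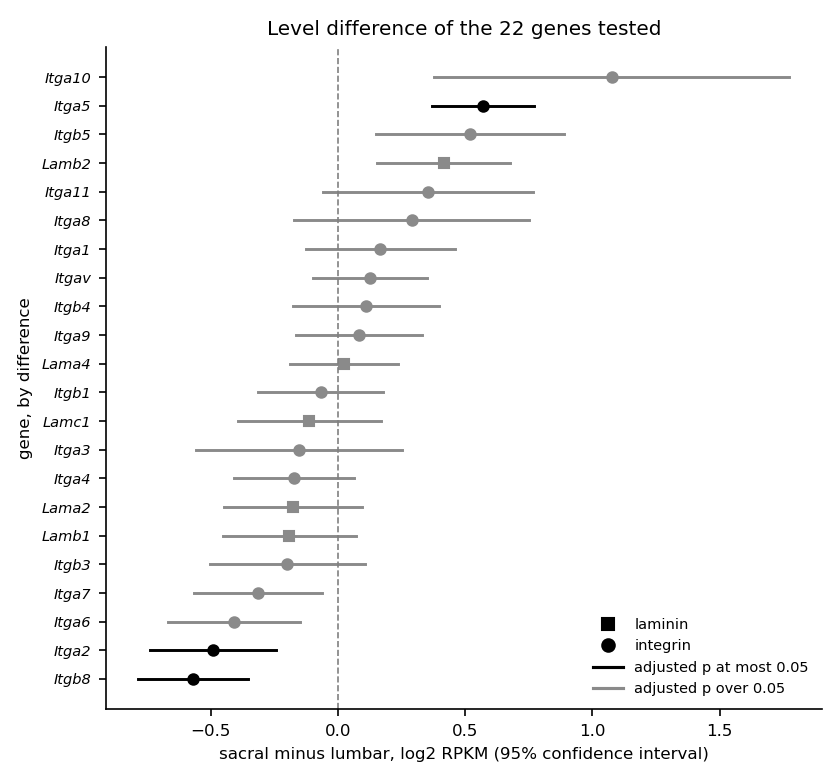
Sacral minus lumbar difference (log2 RPKM, horizontal axis) of the 22 genes tested, with 95% confidence intervals from limma. Squares are laminins, circles are integrins, and black marks the 3 genes with an adjusted p of at most 0.05 (Itga5 above, Itgb8 and Itga2 below 0).

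Itga5 (ENSMUSG00000000555, chromosome 15, 103174720 to 103197194, minus strand, mm9) encodes the alpha subunit of the main fibronectin receptor. In the lumbar libraries it was lowest at 1.502, had a median of 1.88 and was highest at 2.27 log2 RPKM. In the sacral libraries the lowest was 2.07, the median 2.45 and the highest 2.92 log2 RPKM. The groups overlapped, but 8 of the 10 sacral values lay above all lumbar values. Itga5 was 1.49-fold higher in sacral DRG (0.57 ± 0.10 SE, 95% interval 0.37 to 0.77, adjusted p = 0.0017), and higher in 9 of 10 donors. In F8, the exception, it was 2.27 in the lumbar and 2.07 in the sacral library. The difference was 0.64 without M7 and F8. Itga5 rested on 223 to 970 reads per library.

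Itgb8 (ENSMUSG00000025321, chromosome 12, 120396495 to 120477275, minus strand, mm9) ran from 1.01 over a median of 1.79 to 2.37 log2 RPKM in the lumbar libraries. In the sacral libraries it ran from 0.62 over 1.17 to 2.08 log2 RPKM. The groups overlapped, with 4 sacral values below all lumbar ones. Itgb8 was 1.48-fold lower in sacral DRG (-0.57 ± 0.10 SE, 95% interval -0.79 to -0.35, adjusted p = 0.0030), and lower in 9 of 10 donors. The exception was M7, at 2.03 in the lumbar and 2.08 log2 RPKM in the sacral library, which was the highest sacral value. The difference was -0.60 without M7 and F8. The call was lost without the 4 donors that had a library over 40% mitochondrial ribosomal RNA (-0.53, adjusted p = 0.11). Reads per library ranged from 428 to 1659.

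Itga2 (ENSMUSG00000015533, chromosome 13, 115626124 to 115722249, minus strand, mm9), a collagen receptor that can also bind laminin, ran from 1.57 over a median of 1.97 to 2.30 log2 RPKM in the lumbar libraries. Its sacral values ran from 0.92 over 1.44 to 2.14 log2 RPKM. Here 6 sacral values lay below all lumbar ones, while those of M7 and F8 were the highest sacral values. Itga2 was 1.405-fold lower in sacral DRG (-0.49 ± 0.12 SE, 95% interval -0.74 to -0.24, adjusted p = 0.0185), and lower in 8 of 10 donors. Without M7 and F8 the difference was -0.64. The call was lost without M1, M3 or F10, at adjusted p-values of 0.0502, 0.0560 and 0.0554. It was also lost without the donor block (0.10), with no filter on low levels (0.0530) and without the 4 donors that had a library over 40% mitochondrial ribosomal RNA (0.0888). Reads per library ranged from 203 to 666.

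**Figure D3:**
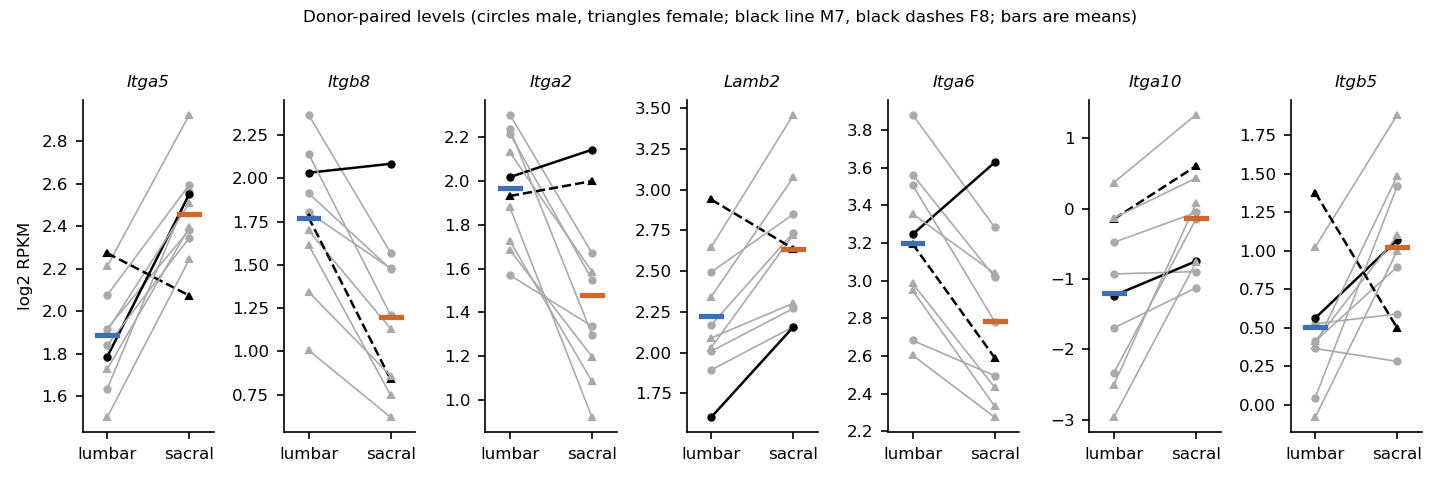
Levels of 7 genes (log2 RPKM, a vertical axis for each gene that does not start at 0) in the lumbar and sacral library of each donor, joined by lines. Circles are male and triangles female donors, coloured bars are the means of 10 libraries, the solid black line is M7 and the dashed black line F8. Itga5 rises in each donor but F8, and Itgb8 and Itga6 are lower in the sacral library of each donor but M7.

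Close outside the threshold were 3 genes. Lamb2 ran from 1.60 over 2.13 to 2.94 log2 RPKM in lumbar and from 2.16 over 2.68 to 3.46 in sacral libraries (difference 0.42 ± 0.13 SE, adjusted p = 0.0504). It was higher in sacral DRG in 9 of 10 donors, all but F8. The laminin receptor Itga6 ran from 2.60 over 3.22 to 3.88 in lumbar and from 2.27 over 2.69 to 3.63 log2 RPKM in sacral libraries (difference -0.41 ± 0.12 SE, adjusted p = 0.0519), and was lower in sacral DRG in 9 of 10 donors, all but M7. Without M7 and F8 both passed, with adjusted p-values of 0.0129 for Lamb2 and 0.0170 for Itga6. This is no separate evidence, because it leaves out the exception of each gene, and the donors were picked after seeing the data. Of the 25 alternatives, Lamb2 passed in 8 and Itga6 in 7. With all donors kept, both passed with donor as a fixed factor, a filter of 4 RPKM, sample weights or voom weights. Neither passed without the donor block or with no filter on low levels.

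Itga10, a collagen receptor known from cartilage, was the 1 gene tested with the same direction in all 10 donors, which 2.85% of all genes tested showed. It entered the test only through the sacral female libraries, so its direction and difference are not independent of that filter. It ran from -2.96 over -1.08 to 0.37 log2 RPKM in lumbar and from -1.13 over -0.10 to 1.34 in sacral libraries (difference 1.08 ± 0.33 SE, adjusted p = 0.0557). The difference varied widely between donors, from 0.03 in M1 to 2.58 in F9, and rested on 22 to 302 reads per library. The value is uncertain, because part of the Itga10 exons overlaps other annotation and such reads could not be assigned. Cartilage markers, summed, were higher in the sacral library of all 10 donors (16.2 to 27.7 RPKM in lumbar, 22.7 to 42.0 RPKM in sacral DRG). Of the 5 tested singly with limma only 1 passed, Col2a1, which rose by 0.80 ± 0.16 SE (adjusted p = 0.0055). Cnmd, which led the sum, did not (0.31 ± 0.15 SE, adjusted p = 0.197). The part of the cartilage markers in the Itga10 values was not tested. Itgb5 had a difference of 0.52 ± 0.18 SE (adjusted p = 0.0797), with higher values in 8 of 10 donors, and passed at 0.0100 without M7 and F8.

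By ligand, the differences of the 12 alpha subunits fell as follows. All 3 laminin receptors had negative differences, and none passed: Itga6 as above, Itga7 at -0.31 ± 0.12 SE (adjusted p = 0.12) and Itga3 at -0.15 ± 0.19 SE. Of the 4 collagen receptors, Itga2 fell, while Itga10, Itga11 (0.35 ± 0.20 SE) and Itga1 (0.17 ± 0.14 SE) had positive differences that did not pass. Of the 3 receptors of the Arg-Gly-Asp motif, Itga5 rose, and Itgav (0.13 ± 0.11 SE) and Itga8 (0.29 ± 0.22 SE) did not pass. Itga4 (-0.17 ± 0.11 SE) and Itga9 (0.08 ± 0.12 SE) did not pass either.

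Beside Lamb2, the other 4 laminins tested did not pass, nor did the beta subunits Itgb1, Itgb3 and Itgb4. Their intervals were as follows: Itgb1 at -0.07 (95% interval -0.31 to 0.18), Lama4 at 0.02 (-0.19 to 0.23), Lamc1 at -0.11 (-0.39 to 0.17), Lamb1 at -0.19 (-0.45 to 0.07), Lama2 at -0.18 (-0.45 to 0.09), Itgb4 at 0.11 (-0.18 to 0.40) and Itgb3 at -0.20 (-0.50 to 0.11). For 10 of the 19 genes that did not pass, the interval lay within 0.5 on the log2 scale in either direction. The donors spread widely around these values, from -0.58 in M8 to 0.999 in M7 for Lama2 and from -0.64 in M8 to 0.90 in M7 for Lamb1. Without M7 and F8, Lamb1 passed (-0.34, adjusted p = 0.0383).

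Donor M7 had the higher level in its sacral library for 20 of the 22 genes, and F8 for 3 of the 22, while the other 8 donors had 6 to 13. M7 went against the direction of the mean in 13 and F8 in 12 genes, against 1 to 10 in the other donors. Lama2 and Itga4 were well above the other sacral male libraries in that of M7, at 4.39 and 2.60 log2 RPKM. Without M7 and F8, 7 of the 22 genes passed, beside 1458 (10.04%) of all genes tested. The 7 were Itga5, Itgb8, Itga2, Lamb2, Itga6, Itgb5 and Lamb1. M7 and F8 were left out after seeing the data and often went against the mean, so passing without them is no separate evidence. Without F8 alone 6 passed, beside 10.97% of all genes, and without M7 alone 4, beside 5.06%.

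Shares of a sum within a library compare the genes with each other inside each sample, and are given as a description with no test. Shares of 1 sum are tied to each other, so a smaller share of 1 gene raises those of others. Among the 12 alpha subunits tested, all known partners of Itgb1, Itga5 had a share of 9.28% ± 1.54 (SD, n = 10) in lumbar and 14.2% ± 2.54 in sacral DRG. It was larger in sacral DRG in all 10 donors, but nearly equal in F8, at 10.81% in the lumbar and 11.04% in the sacral library. Itga6 had 22.9% ± 3.258 and 17.9% ± 3.41 and was smaller in all 10 donors. In M7 its share went from 23.4% to 21.6%, with a higher level of Itga6 in the sacral library. Itga2 had 9.73% ± 0.69 and 7.20% ± 1.397 and was smaller in 9 of 10. The summed alpha subunit RPKM was 40.8 ± 6.16 in lumbar and 39.8 ± 6.91 in sacral DRG.

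Among the beta subunits, Itgb8 had a share of 6.28% ± 1.71 in lumbar and 4.45% ± 1.28 in sacral DRG, smaller in all 10 donors. In M7 it was 6.05% and 5.93%, lumbar first. The share of Itgb1 was 78.1% ± 4.87 and 78.3% ± 5.38. Among the beta chains of laminin, Lamb1 had 69.3% ± 7.28 in lumbar and 59.8% ± 10.9 in sacral DRG, and Lamb2 had 30.5% ± 7.003 and 40.04% ± 10.9, with a larger Lamb2 share in 8 of 10 donors. The summed beta chain RPKM was 15.9 ± 2.82 and 16.3 ± 2.73.

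**Figure D4:**
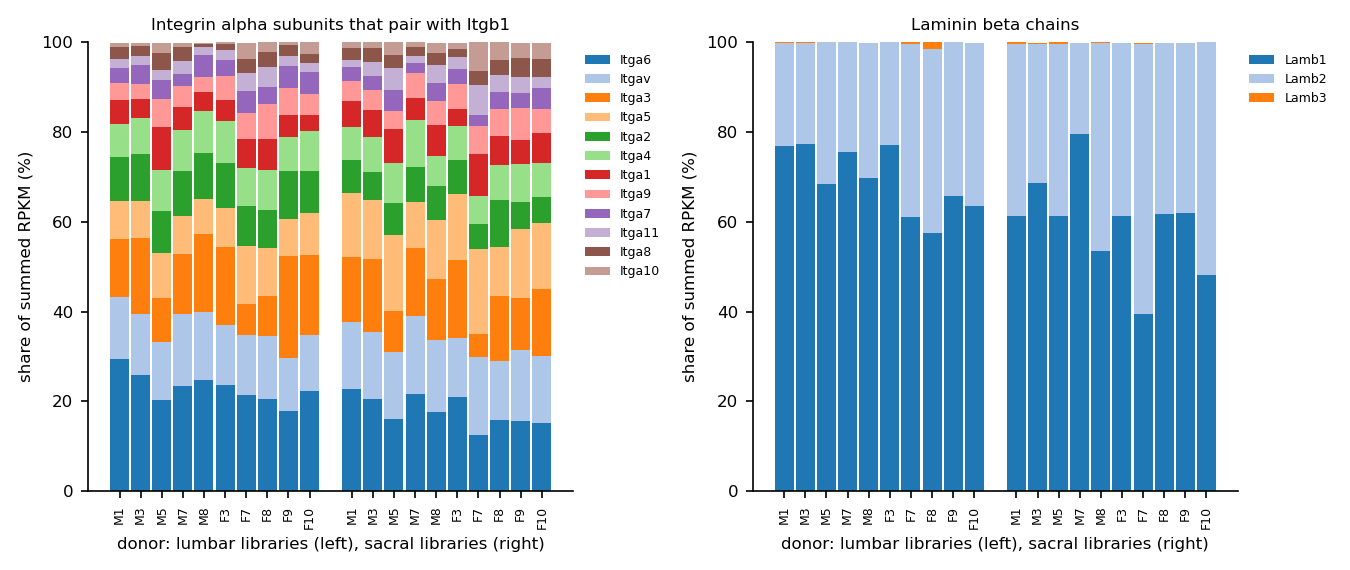
Share of summed RPKM (%, vertical axis) of the 12 alpha subunits that pair with Itgb1 (left) and of the 3 laminin beta chains (right) in each library, by donor, with lumbar libraries in the left and sacral libraries in the right block. Itga5 takes a larger and Itga6 a smaller share in the sacral library of each of the 10 donors.

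Among the 16 genes whose mean log2 RPKM was below 0 in all groups were Lama1, Lama3, Lama5, Lamb3, Lamc3, Itga2b, Itgad, Itgae, Itgal, Itgam, Itgax, Itgb2, Itgb2l, Itgb6 and Itgb7. Lama1, Lama3, Lama5 and Itgam, a macrophage integrin, each had 2566 to 2829 reads over the 20 libraries and were present in each library. Itgam was at -1.03 ± 0.66 in lumbar and -0.26 ± 0.62 log2 RPKM (SD, n = 10) in sacral DRG, with 8 of 10 donors higher. The shared leukocyte subunit Itgb2 had 738 and its partner Itgal 1170 reads in all.

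Of the remaining genes, Lamc3 had 499, Itgb6 443 and Itgae 385 reads over the 20 libraries. Others were closer to the limit of detection. Itgax, an integrin of dendritic cells, had 11 reads in all 20 libraries together and more than 3 reads in 1 library. Itgb2l had 67 reads, Lamb3 had 102, the platelet subunit Itga2b had 190, and Itgb7 had 301. A count of 0 allows up to 3 reads, and such limits cover counting error only, since the libraries were amplified without molecular identifiers. Whole reads could not be recovered for Itgad, at a mean of 0.0156 RPKM, nor for Itgb3. Itgb3 was well detected, at 4.54 RPKM with a value in all 20 libraries.

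Differences between the sexes were tested within each level and as an interaction with level. In lumbar DRG 0 of the 22 genes passed, beside 0.33% of all genes, and 1 had an unadjusted p under 0.05, beside 8.28%. The smallest adjusted p was that of Itgb8 (-0.56 female minus male, adjusted p = 0.29). In sacral DRG 0 of 22 passed, beside 1.01% of all genes, and 3 had an unadjusted p under 0.05, beside 15.5%. These were Itgb8, Lama2 and Itga6, all with the lower mean in females: Itgb8 at -0.72 ± 0.18 SE (adjusted p = 0.0557), Lama2 at -0.53 ± 0.23 SE (adjusted p = 0.27) and Itga6 at -0.51 ± 0.22 SE (adjusted p = 0.27). In the 3 genes, M7 was the highest sacral male library.

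The level difference was not shown to differ between males and females. In the interaction test 0 of 22 genes passed and 0 had an unadjusted p under 0.05, beside 0.0% and 3.23% of all genes tested, and all adjusted p-values were at or above 0.995. Itga5 differed by 0.64 ± 0.20 (SD, n = 5 donors) in males and 0.50 ± 0.40 in females, Itgb8 by -0.49 ± 0.39 and -0.65 ± 0.24, and Itga2 by -0.47 ± 0.42 and -0.51 ± 0.37. With 5 donors alone, Itga5 passed in males (adjusted p = 0.0242) and not in females (0.21), while Itgb8 and Itga2 passed in neither.

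The matrix and receptor proteins that work with laminins and integrins were read from 4 lists of 92 genes, of which 78 were tested. Of these, 11 rose and 1 fell in sacral DRG, which is 15.4% of those tested, beside 6.73% of all genes. Without M7 and F8, 19 passed, beside 10.04% of all genes.

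The other integrin ligands held the most calls, where 6 of 22 genes rose and 0 fell, with a median difference of 0.39. Fibronectin (Fn1), the ligand of the Itga5 receptor, rose by 0.70 ± 0.16 SE (adjusted p = 0.0140) in 9 of 10 donors. Thbs1, a thrombospondin, rose by 1.28 ± 0.21 SE, and Emilin1, an elastic fibre protein, by 0.80 ± 0.18 SE in all 10 donors. Tgfb3 (0.63 ± 0.16 SE), a TGF-beta ligand held latent until released, Ltbp1 (0.78 ± 0.16 SE), which ties it to the matrix, and the microfibril protein Fbn1 (0.52 ± 0.13 SE) rose as well. The bone sialoprotein Ibsp had the largest difference among the genes tested of the list, 1.47, and did not pass (adjusted p = 0.0575).

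Of the basement membrane partners, 3 of 14 rose: Agrn, the heparan sulphate proteoglycan agrin (0.29 ± 0.08 SE), Smoc2, a calcium-binding matrix protein (0.71 ± 0.19 SE), and Fras1, a protein that anchors epithelia (0.44 ± 0.13 SE). The main partners of laminin in the sheet did not pass, with Nid1 at 0.11, Nid2 at 0.12, Col4a1 at 0.03 and Hspg2 at 0.07. Of the list of other laminin receptors and the proteins bound to them, 2 of 16 passed. Sdc2, a syndecan, rose by 0.31 ± 0.09 SE, and Prx, periaxin, a scaffold protein inside myelinating Schwann cells and no receptor itself, fell by 1.17 on the log2 scale (SE 0.17, adjusted p = 0.00052) in 10 of 10 donors. The mean of Prx was 0.55 in lumbar and -0.62 log2 RPKM in sacral DRG, so its call is not independent of the 1 RPKM filter. Dystroglycan (Dag1) was at 0.01. Of the integrin adaptors inside the cell, 1 of 26 passed: Tns2, a tensin, rose by 0.53 ± 0.15 SE. The talins Tln1 (0.17) and Tln2 (-0.11) and the kindlin Fermt2 (-0.21) did not pass.

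**Figure D5:**
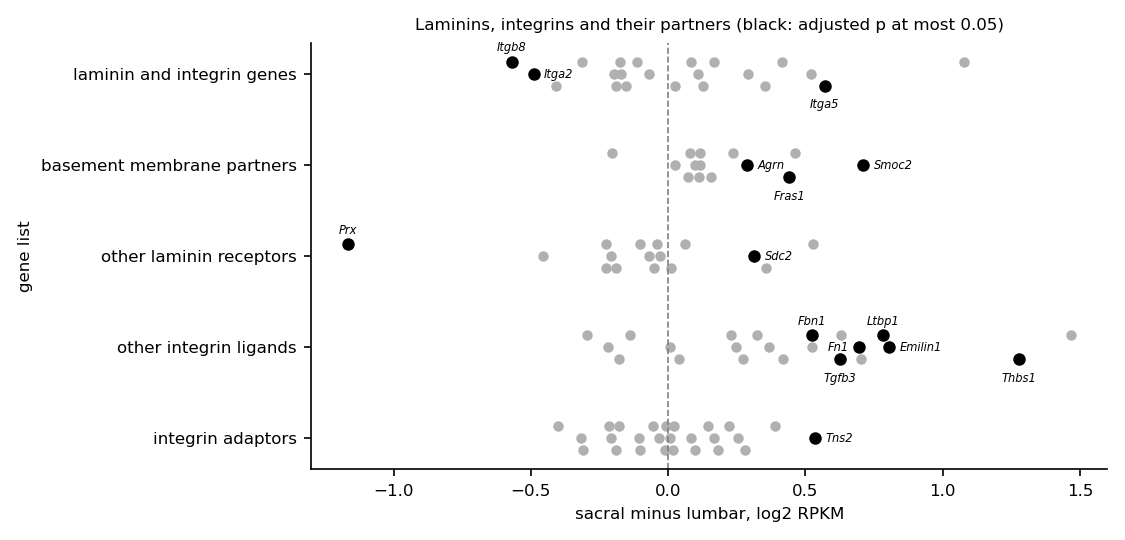
Sacral minus lumbar difference (log2 RPKM, horizontal axis) of each gene tested among the laminins and integrins and in 4 lists of their partners (rows). Black points with names have an adjusted p of at most 0.05, grey points do not. The 6 named integrin ligands lie to the right of 0, and Prx lies farthest to the left.

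Some markers of the cell types in and around the ganglia moved with level too. Their counts stand beside 2.7% of all genes tested called higher and 4.03% called lower in sacral DRG. Of the fibroblast and meningeal markers 7 of 12 rose (Foxc1 0.85, Col1a1 0.72). The sum of the 12, led by Ptgds, was 394 to 985 RPKM in lumbar and 488 to 1168 RPKM in sacral DRG, higher in 8 of 10 donors. Of the Schwann cell and satellite glia markers 5 of 12 fell (S100b -0.67, Mbp -0.58). The sum of these 12 was 422 to 593 RPKM in lumbar and 273 to 465 RPKM in sacral DRG, lower in all 10 donors. Twist1 (mean log2 RPKM -0.79 in lumbar, 0.30 in sacral DRG) is among the 7, and Egr2 (-0.08 and -1.18) among the 5. Both lay near the 1 RPKM filter, so their calls are not independent of it. Of the sensory neuron markers 2 of 12 fell, Nefl by 0.90 and Snap25 by 0.60 on the log2 scale. The sum, led by Nefl, was lower in 9 of 10 donors, all but F8. The rest of these markers did not pass, among them Elavl4 at -0.05, and the median difference of the 12 was -0.31. Of the endothelial markers 2 of 7 rose (Cdh5 and Tek), with the sum, led by Cdh5, higher in 9 of 10 donors. The other 5 did not pass, and the median difference of the 7 was -0.0040.

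Among leukocyte markers 1 of 7 rose (Mrc1), while 0 of 5 mural cell, 0 of 2 platelet and 0 of 11 skeletal muscle markers passed with limma (1 of each list had an unadjusted p under 0.05), and 1 of 5 cartilage markers did. No marker was at 0 in all libraries. The exceptions named for Itga5, Itgb8, Itga2, Lamb2 and Itga6 were all M7 or F8. F8 was the exception for Itga5 and Lamb2, M7 for Itgb8 and Itga6, and both were for Itga2. M7 followed the mean for Itga5 and Lamb2, and F8 followed it for Itgb8 and Itga6. The part of these cell types in the differences of the laminin and integrin genes was not tested.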

How the data were processed

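The authors amplified total RNA of whole DRG to cDNA, made transposase-tagged libraries and sequenced them on a HiSeq instrument. The authors aligned reads to mm9 with Subread, counted them per Ensembl gene with featureCounts, applied TMM scaling (edgeR 3.12.1) and voom (limma 3.26.9), and deposited log2 RPKM values. The deposited values have the same median in each library, and the step that set it is not named in the study's methods. Whether counting used strand is not given in the sources used here, so reads of overlapping genes are uncertain. Exons of Itga4, Itga8, Itgav, Itgb4, Itgad and Lamc3 overlap a gene on the other strand, and Itga7 by 1 base.

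Whole reads were recovered from the deposited log2 values with exon lengths of GENCODE M1 (mm9). For 28324 genes each value was within 0.05 of a whole read, and 98.18% to 98.36% of values per library were. A blank was set to 0.5 reads. Genes with a mean of at least 1 RPKM in at least 1 of the 4 groups were tested (14529), with no pseudocount, by limma 3.58.1 (R 4.3.3): a mean per group, donor as a block (correlation 0.342), moderated variances with a trend, two-sided tests and Benjamini-Hochberg adjustment at 0.05. The pipeline was tested on simulated data. Donor pairs come from the labels, and the deviations of a donor's libraries from their group means correlated at -0.17 to 0.68. Reported p-values rest on the spread of libraries within their groups, with 1 donor correlation shared by all genes. For a gene with closer pairs, such as Itgb1 (SD of donor differences 0.13, SE 0.12), the interval of the level difference is wider than its own pairs would give. For a gene with looser pairs it can be narrower. Whether litters were shared is not given in the sources used here.

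The members and gene lists were chosen with earlier results of these data known. Named were the members past the threshold, those with 1 direction in all donors, the 3 highest laminins, the 6 highest integrins, and listed partners past the threshold. Other genes were named with their values known, and a few results are not reported here. Alternatives covered blocking, filters, a pseudocount, scaling, weights and left-out donors. Leaving out M7 and F8, or donors with a library over 40% mitochondrial ribosomal RNA, was chosen after seeing the data.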

Additional observations from a re-analysis of the deposited data

Results flagged for a closer look

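In 8 of 88 sets of 5 libraries (22 genes in 4 groups) 1 library lay far from the other 4, with a gap of over 0.71 of the range. Chance gives about 1 in 20, or 4.4 sets. The sacral male library of M7 was at 4.39 log2 RPKM for Lama2, against 3.14 to 3.41 in the other 4, and at 2.60 for Itga4, against 1.39 to 1.67. Donor M5, with 61.4% mitochondrial ribosomal RNA reads in its lumbar and 49.9% in its sacral library, was low for Itgb1 in both: 4.66 against 5.68 to 5.84 in lumbar male, and 4.79 against 5.57 to 5.86 in sacral male libraries. Its lumbar library was also low for Itgav, at 2.02 against 2.64 to 2.81. The sacral female library of F7 was high for Itgav, at 2.81 against 2.32 to 2.42. Itga8 was low in the lumbar male library of M8, at -1.84 against 0.08 to 0.43, and in the sacral female library of F3, at -0.57 against 0.29 to 0.46. The causes were not tested.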

How the results depend on the processing

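Of the 25 alternatives, Itga5 passed in 24 (0.47 to 0.66, not in females alone), Itgb8 in 22 (-0.65 to -0.41, not in either sex alone or without the donors over 40% mitochondrial ribosomal RNA) and Itga2 in 17 (-0.64 to -0.37). The main count of 3 genes is given with the share of all genes called under the same setting. It became 5 with donor as a fixed factor (6.4%), 5 of 13 tested with a filter of 4 RPKM (12.7%) and 5 with a pseudocount of 1 (7.2%). It became 6 of 21 tested with voom weights (7.2%) and 7 with sample weights (20.6%). It was 1 in males (0.74%), 0 in females (0.21%, fewer samples), 1 without the donors over 40% (2.9%) and 7 without M7 and F8 (10.04%). When 1 donor was left out it was 2 to 6 (2.75% to 10.97%). Without the replicate block 2 passed, Itga5 and Itgb8 (1.06%), and with no filter 2 of 38 tested (1.75%). Of all genes, 978 of 14529 became 154 without the block, 509 of 29049 with no filter, 1023 of 8077 with a filter of 4 RPKM and 2998 with sample weights. The count was 107 in males, 30 in females, 421 without the donors over 40%, and 400 (without F10) to 1594 (without F8) when 1 donor was left out. Without M5 it was 487, without F7 509, without F3 562 and without M1 600. The partner genes, 12 of 78, became 2 without the block, 5 of 92 with no filter and 31 with sample weights. There were 4 in males, 0 in females, 19 without M7 and F8, and 4 (without F10) to 22 (without F8). They were 5 without M5 or F3, 6 without F7, and 8 without M1 or M8. Of the calls, 40.1% were higher in sacral DRG, beside 51.6% after quantile normalisation, 56.1% in males and 49.4% without M7 and F8. In lumbar DRG 1 gene differed by sex with sample weights. In sacral DRG 1 did with median centring, quantile normalisation, sample weights or a mitochondrial covariate, and 0 to 2 when 1 donor was left out (2 without M5). In the interaction test 0 passed under each alternative in which it could be fitted. The sign of a difference that did not pass turned for Lamc1 (0.024) and Itgb1 (0.070) with quantile normalisation, for Itgb1 (0.0086), Itgb4 (-0.12) and Lama4 (-0.025) in males, for Itga9 (-0.0028) in females, and for Lama4 when 1 donor was left out (-0.062 without M7, -0.024 without F10, up to 0.067 without M8) or both M7 and F8 (-0.019). The causes were not tested. Low reads limit the genes below 1 RPKM and Itga10.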
